A study of Mus musculus with 4 samples.

Results

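ATP-dependent chromatin remodellers and their partner proteins were examined here through the m6A peaks of their transcripts in mouse embryonic stem cells. Genes were taken by symbol, wherever a peak was assigned to a name of the Chd, Smarca to Smarce, Arid, Ino80, Baz or numbered Brd series. The rule found 37 genes of the 9949 with a peak in any library, with 227 of the 46417 peaks. Of these genes, 34 encode proteins of the families, and 3 (Brd3os, Chd3os and Smarca5-ps) matched by name only. Of 54 symbols in the RefSeq table that fit the rule, 36 had a peak and 18 had none among those analysed. Chd3os was the 1 member whose name the RefSeq table did not hold.

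The libraries came from 2 Mettl5-/- (KO) and 2 wild-type (WT) samples of C57BL/6N mouse embryonic stem cells. Total RNA was fragmented to a size near 200 nucleotides and precipitated with an anti-m6A antibody before cDNA synthesis and PCR. Both groups share this strain, antibody and preparation. No source used here says how the Mettl5 allele was made, whether the KO cells are 1 clone, or whether the libraries stand for separate cultures, so any p-value measures only the spread between these samples, which may be technical. The protocols also describe differentiation, but no label assigns a library to it. Mettl5 itself had 0 peaks in the lists, so peaks give no check of the knockout.

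Remodellers of the SNF2 superfamily use ATP to slide, evict or exchange nucleosomes, and each ATPase works within a complex whose other subunits (ARID, BAZ and bromodomain proteins among them) bind DNA or modified histones. The main families are BAF (SWI/SNF), CHD, ISWI and INO80, and in embryonic stem cells they are known for keeping the chromatin at pluripotency genes open or, in the NuRD complex, for limiting it. m6A is a methyl mark on adenosine, written on messenger RNA by the Mettl3 and Mettl14 enzymes and typically found in long internal exons and near stop codons. Mettl5 is known to place the same mark on a single adenosine of the small-subunit ribosomal RNA.

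Each list held between 10821 and 12699 peaks, and the remodeller genes had 63 and 52 peaks in KO libraries 1 and 2, against 56 and 56 in WT libraries 1 and 2. The mean was 57.5 ± 7.78 peaks in KO libraries and 56.0 ± 0 in WT libraries (SD, n = 2 each), a difference of 1.5 peaks with an exact two-sided permutation p of 1. With 2 libraries a genotype the smallest p this test can give is 0.33, so by this test no comparison of the genotypes could pass a threshold of 0.05. The lists give called peaks and no read counts, so the depth is unknown, and a transcript can lack a peak because of a low RNA level as well as a low m6A level. In such bulk RNA, fewer cells of a type and less RNA per cell cannot be told apart. Of 12 embryonic stem cell markers, 8 had a peak, all of them in all 4 libraries. Of 8 fibroblast markers, which would mark feeder cells, only Pdgfrb had one, at the percentiles 88.9 and 85.5 in KO and 83.2 and 84.5 in WT libraries. Of 8 neural markers, 5 had a peak, Sox1 and Nes in all 4 libraries, and the part these cell types play in the results was not tested.

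The strength of a peak is given as the percentile of its p-value within its own list, where 100 is the strongest, and the best peak stands for a gene. Fold enrichment is the authors' own value for each peak. Its denominator is not named in the lists, so it ranks peaks only within a list. A region is a place where exon blocks of peaks, from any of the lists, overlapped by at least 1 bp.

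Most of the remodeller transcripts with a peak had one in both genotypes. A peak in all 4 libraries was found for 22 of the 37 genes (59.5%, against 57.1% of all genes with a peak). A peak in both KO and neither WT library was found for 2 genes (5.41%, against 2.27% of all), Chd3 and Chd7. A peak in both WT and neither KO library was found for 0 genes (0%, against 1.56% of all). The remaining 13 lie between these patterns: 6 genes had a peak in 1 library only, and the others in 2 or 3. These counts are descriptions with no test, and the shares of the remodeller genes in all 4 libraries lay close to those of all genes. The counts by family given below are descriptions too, and those in all 4 libraries stand beside the same 57.1%. The share of all annotated genes that had a peak is not given here, so no family count of genes with a peak can be called high or low.

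**Figure D1:**
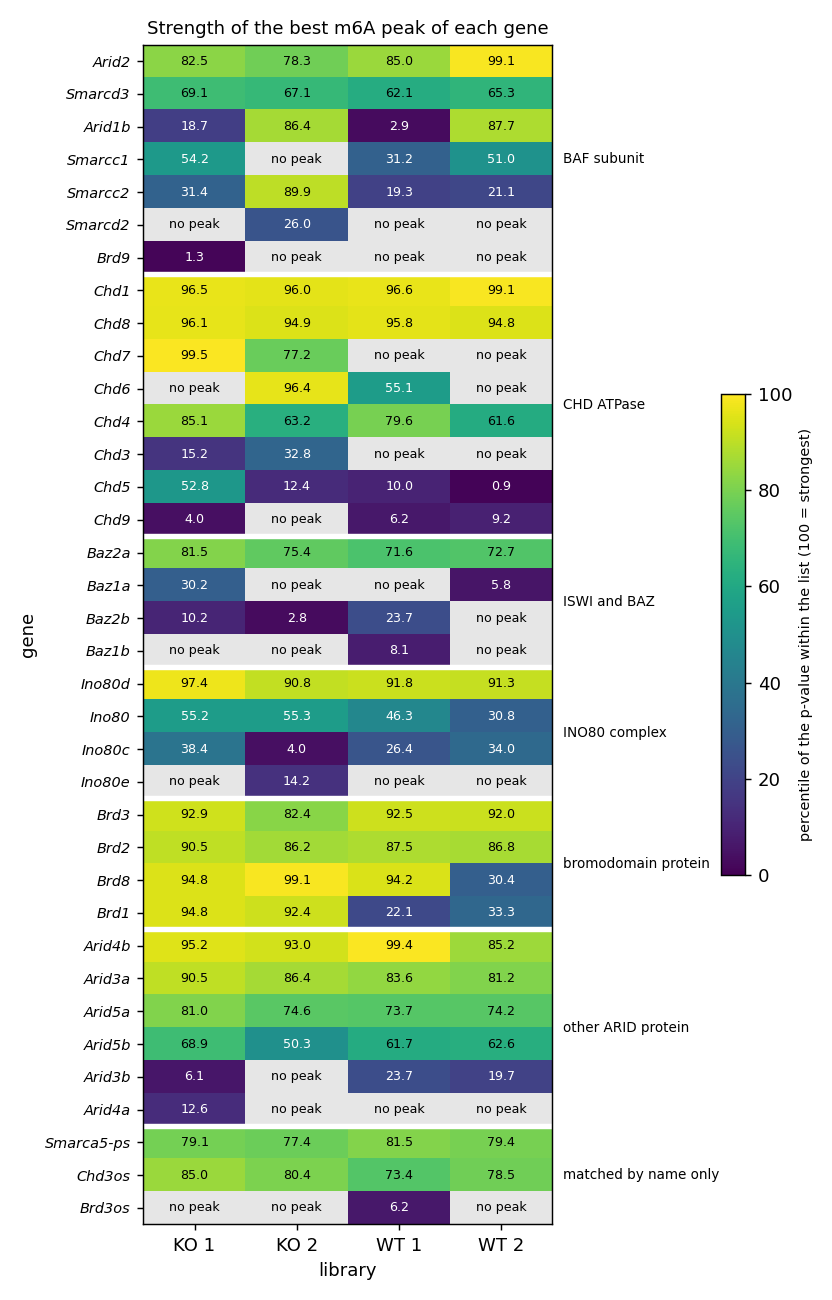
Strength percentile of the best peak of each gene shown (rows, grouped by role) in the KO and WT libraries (columns), with grey for no peak. Chd1, Chd8, Ino80d and Brd2 lay above 86 in every library, whereas Chd3 and Chd7 had peaks in the KO libraries only.

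The m6A consensus was looked for where a peak reached the start of a transcript. The motif is A, G or T, then A or G, then A, C, and A, C or T, and 24 of the 37 genes had a RefSeq promoter window, which runs from 250 bases before to 50 after a transcript start. Only window bases covered by a peak were searched, on the sense strand, and matches that overlap each other were allowed. The next sequences show the match under the start-proximal peaks, in capitals within 30 bases of the sense strand (RefSeq, GRCm38.p6).
Arid1b, chr17:4995087-4995116 (+ strand), under the peak of WT library 2: gctcgaccatggAGACCgggctgctcccca
Brd2, chr17:34119854-34119883 (− strand), under the 5′ peak of all 4 libraries: cctcgcagccaaGAACCtttcgcccgcccc
The Arid1b match begins at base 26 and the Brd2 match at base 30 from a transcript start in the RefSeq table. Both starts lie inside the RefSeq gene, whose 5′ end is at 4994297 for Arid1b and at 34122814 for Brd2. For Smarcc1, a BAF scaffold subunit whose start-codon peak covers 89 window bases in KO library 1 and 29 in each WT library, no match lay in the covered bases. Of all 32851 promoter windows, 54.4% hold the motif in the 50 bases after the start, so a match is common and is no site on its own. The covered bases numbered 73 for Arid1b, 50 for Brd2 and 89 or 29 for Smarcc1, so this share is no exact rate for the bases searched.

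The BAF complexes showed peaks on some of their subunits and none on their ATPases. Neither Smarca4 nor Smarca2, the alternative ATPases, had a peak among those analysed, nor did the subunits Smarcb1, Smarcd1 and Smarce1 or the DNA-binding subunit Arid1a. Of the 12 BAF subunits listed besides the ATPases, 7 had a peak and 4 had one in all 4 libraries. Arid2, the DNA-binding subunit of the polybromo form of BAF, had the highest mean strength among them. Its best peak lay at the percentiles 82.5 and 78.3 in KO libraries, against 85 and 99.1 in WT libraries. The Arid2 region at chr15:96369423-96371019, in the coding sequence, was shared by all 4, with fold enrichments of 118 and 68.5 in KO and 393 and 259 in WT lists. The top value of WT library 2 came from a second coding region, chr15:96371259-96372759, a single block of 1501 bp with a fold of 496 that no other library had.

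Arid1b, the paralogue of Arid1a in canonical BAF, had a peak in every library but no region in all 4. Its best peak lay at 18.7 and 86.4 in KO libraries and at 2.94 and 87.7 in WT libraries. The strong pair was the same coding region, chr17:4995381-4996101, with folds of 87.0 in KO library 2 and 71.5 in WT library 2. The start-proximal peak whose bases are printed was weak, at 9.24 in WT library 2. The difference on Arid1b thus ran between libraries of the same genotype, not between the genotypes. Smarcc2, a scaffold subunit, had a weak 3′ untranslated region (3′UTR) peak in all libraries, at 31.4 and 42.0 in KO and 19.3 and 21.1 in WT libraries. KO library 2 alone also held a coding peak of 5 exon blocks on Smarcc2, at the percentile 89.9 and a fold of 31.2. Smarcc1, its paralogue, had a peak across the start codon at 54.2 in KO library 1, none in KO library 2, and 31.2 and 29.1 in WT libraries, with folds between 2.17 and 5.01. The best Smarcc1 peak of WT library 2 was another, a coding peak at 51.0 with a fold of 1.42 that no other library had. Smarcd2 (26.0 in KO library 2) and Brd9 (1.27 in KO library 1), also BAF subunits, had 1 peak each. Brd7, a subunit of the polybromo form, had none.

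Smarcd3, a BAF subunit known for its part in heart and muscle, was listed in all 4 libraries at 69.1 and 67.1 in KO and 62.1 and 65.3 in WT libraries. Those peaks are uncertain. Of the 13 Smarcd3 peaks, 11 lay beyond the RefSeq gene. The region shared by all 4 libraries, chr5:24591087-24592496, lay wholly past its 3′ end. Peaks of Chpf2, a gene on the other strand, overlapped Smarcd3 peaks 11 times, and in 10 of the 11 pairs the edges matched within 30 bp. The folds were close to equal, such as 125 for Smarcd3 and 125 for Chpf2 in KO library 2 and 113 for Smarcd3 and 110 for Chpf2 in WT library 2. No source used here says whether the reads were counted by strand.

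The CHD ATPases had 8 of 10 members with a peak, and 4 of those 8 had one in all 4 libraries (against 57.1% of all genes with a peak). Chd1, which binds trimethylated histone H3 at active promoters and is needed for the open chromatin of embryonic stem cells, had the highest mean strength of the genes in all 4 libraries. Its coding region at chr17:15766359-15770902, over 4 exon blocks, lay at 96.5 and 96.0 in KO libraries and 96.6 and 99.1 in WT libraries. The folds were 453 and 172 in KO lists and 1040 and 191 in WT lists.

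Chd8, a regulator of Wnt target genes and of neurodevelopment, held several strong regions in its coding sequence. The region at chr14:52198181-52199873, near the end of the gene, was present in all 4 libraries at 96.1 and 92.9 in KO and 95.8 and 94.8 in WT. Its folds were 481 and 400 in KO lists and 329 and 212 in WT lists. A region further 5′, chr14:52227504-52235465, spanned 4 exon blocks and was called in both KO libraries and in neither WT library. It lay at 95.8 and 94.9 in the KO lists, with folds of 43.6 and 13.1 and widths of 1020 and 870 bp. The difference did not run 1 way along the transcript: chr14:52204159-52205581 was at 93.0 in KO library 1, absent from KO library 2, and at 92.6 and 92.6 in the WT libraries.

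Chd7, an enhancer-bound remodeller mutated in CHARGE syndrome, was listed in KO libraries only, but at different places. KO library 1 had a coding peak of 4 blocks at the percentile 99.5 and a fold of 936. KO library 2 had a peak in an upstream coding exon at 77.2 and a fold of 255, and a weak one at 23.6. Chd6, its close relative, had a coding peak of 5 blocks and 1949 bp in KO library 2 alone, at 96.4 and a fold of 243. A second Chd6 region was found in KO library 2 at 51.9 and in WT library 1 at 55.1, while KO library 1 and WT library 2 had none on the gene.

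The ATPases of the NuRD repressor complex had weaker peaks. Chd4, the main one in embryonic stem cells, had a best peak at 85.1 and 63.2 in KO libraries and 79.6 and 61.6 in WT libraries. Its folds were small in every list, from 1.37 to 3.25 over all its peaks, and no region was in all 4. The Chd4 region at chr6:125114029-125114571 was called in both KO libraries, at 65.8 and 37.5, and in neither WT library. Chd3 had peaks at 15.2 and 32.8 in KO libraries, in separate coding regions, and none in WT libraries. Chd5, a neuronal member, had the lowest mean strength of the genes in all 4 libraries. Its best peak lay at 52.8 in KO library 1, in coding sequence, and the 3′UTR region shared by all libraries lay at 27.5 and 12.4 in KO libraries and 10 and 0.875 in WT libraries. Chd9 had a 5′ peak of 121 bp in 3 libraries, at 3.98 in KO library 1 and 6.25 and 9.24 in WT libraries. Chd1l and Chd2 had no peak among those analysed.

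**Figure D2:**
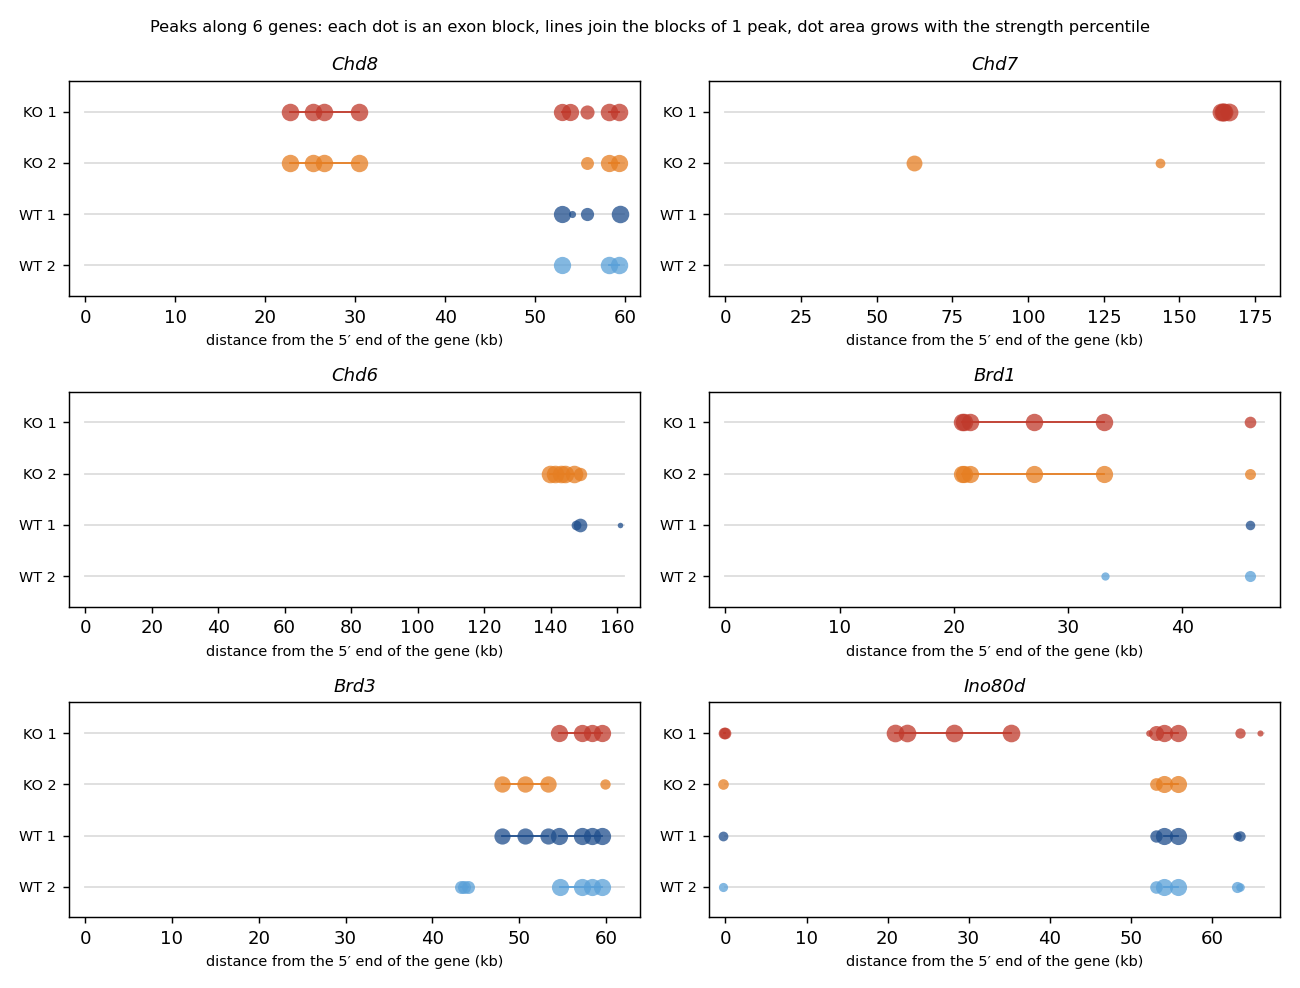
Peaks along Chd8, Chd7, Chd6, Brd1, Brd3 and Ino80d by distance from the 5′ end of the RefSeq gene in kb, with a row for each KO and WT library. Dots are exon blocks, lines join the blocks of 1 peak and dot area grows with strength. The 4-block peak of Chd8 and the 5-block peak of Brd1 appear in both KO libraries and in neither WT library, and the strong Chd7, Chd6 and 4-block Ino80d peaks appear in 1 library each.

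The ISWI ATPases Smarca5 and Smarca1 had no peak among those analysed, while 4 of 4 BAZ partners had at least 1. Baz2a, which directs silencing of ribosomal RNA genes, was the 1 found in all 4 libraries. Its best 3′UTR region, chr10:128128524-128129003, lay at 81.5 and 75.4 in KO libraries and 71.6 and 72.7 in WT libraries. Baz1a, the partner in the ACF complex, had 1 peak at 30.2 in KO library 1 and 1 at 5.79 in WT library 2, in different exons. Baz2b had a weak coding peak at 10.2 and 2.83 in KO libraries and 23.7 in WT library 1. Baz1b had 1 peak, at 8.09 in WT library 1. Among other SNF2 ATPases, Smarcad1 and Smarcal1 had none.

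INO80, the complex that slides nucleosomes and removes the variant H2A.Z, had peaks on 4 of its 5 listed members. Ino80d held the most regions of any member, 8. Its long coding region chr1:63057670-63060308 was in all 4 libraries at 93.3 and 90.8 in KO and 91.8 and 91.3 in WT libraries, with widths between 1620 and 1650 bp. KO library 1 alone had a 4-block coding peak of Ino80d at 97.4 and a fold of 402. The region chr1:63050987-63051287, in the 3′UTR, was the only member region called in both WT libraries, at 15.8 and 33.5, and in neither KO library. The 4 Ino80d peaks at the 5′ end, 1 per library, lay beyond the RefSeq gene.

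Ino80, the ATPase itself, had its shared 3′UTR region at chr2:119373342-119374001. It lay at 55.2 and 55.3 in KO libraries and at 30.4 and 30.8 in WT libraries, with folds of 20.4 and 61.3 in KO and 14.5 and 17.0 in WT lists. Both KO values of this region lay above both WT values. By ranks among the regions shared by all 4 libraries, the same held for 19.5% of all such regions, and the reverse for 21.5%. A neighbouring 3′UTR region, chr2:119374241-119374480, lay at 35.5 in KO library 2 with a fold of 7.97 and at 46.3 in WT library 1 with a fold of 29.6. It had no peak in the other 2 libraries and so gives no direction between the genotypes. Ino80c, a small subunit, had 3′UTR peaks in all libraries but no region in all 4. One of its regions was called in both KO libraries, at 22.3 and 4.01, and in neither WT library, and another in KO library 1 at 38.4 and in WT libraries at 26.4 and 34.0. Ino80e had 1 peak, at 14.2 in KO library 2, and Ino80b had none.

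Brd1, Brd2, Brd3 and Brd8, bromodomain proteins outside BAF, had peaks in every library. Brd2, a BET protein that reads acetylated histones, had 3 regions in all 4 libraries. Its best peak lay at 90.5 and 86.2 in KO libraries and 87.5 and 86.8 in WT libraries, but in different regions. The KO values came from a 3′UTR region, chr17:34113342-34115718, which lay at 80.3 and 79.1 in WT libraries. The WT values came from the 5′ region, which lay at 89.9 and 83.7 in KO libraries. The Brd2 5′ region, chr17:34117009-34120372, spanned 4 blocks and between 1530 and 1620 bp in every list, with folds of 293 and 158 in KO and 194 and 314 in WT lists. Brd3, another BET protein, had a region at its 3′ end, chr2:27447615-27453214, at 92.9 and 27.8 in KO libraries and 92.5 and 92.0 in WT libraries. That region was a 4-block peak with folds of 720, 603 and 724 in KO library 1, WT library 1 and WT library 2, and a 210 bp peak with a fold of 3.83 in KO library 2. The best Brd3 peak of KO library 2 lay in the next coding region, chr2:27454262-27459774, at 82.4, where WT library 1 had a peak at 80.6.

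Brd1, a scaffold of histone acetyltransferase complexes, showed the largest gap between the genotypes in its best peak among the genes in all 4 libraries. It lay at 94.8 and 92.4 in KO libraries, against 22.1 and 33.3 in WT libraries. Both KO lists held a peak of 5 exon blocks in chr15:88700850-88713535, with folds of 115 and 77.4 and widths of 1227 and 1138 bp. WT library 2 had only a 300 bp peak in the same region, at 14.5 and a fold of 6.66, and WT library 1 had none. Another Brd1 region, at the end of the coding sequence, was in all 4 libraries at 37.4 and 32.0 in KO and 22.1 and 33.3 in WT. Brd8, a subunit of the Tip60 acetyltransferase complex, had a best peak at 94.8 and 99.1 in KO libraries and 94.2 and 30.4 in WT libraries. Its strong coding region was missing from WT library 2 alone.

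The other ARID proteins had 6 of 7 members with a peak and 4 with one in all 4 libraries. Arid4b, a subunit of Sin3 repressor complexes, had a best peak at 95.2 and 93.0 in KO libraries and 99.4 and 85.2 in WT libraries. Its shared coding region, chr13:14164737-14165097, had the same width of 361 bp in every list and lay at 95.2 and 93.0 in KO and 89.3 and 85.2 in WT libraries. The top value of WT library 1 came from a 3-block coding peak that no other library had, with a fold of 379. Arid3a, a transcription factor first known from B cells, had its best region at 90.5 and 86.4 in KO and 83.6 and 81.2 in WT libraries. Arid5a, which binds and stabilises inflammatory messenger RNAs, lay at 81.0 and 74.6 in KO and 73.7 and 74.2 in WT libraries, and Arid5b, a partner of the demethylase Phf2, at 68.9 and 50.3 in KO and 61.7 and 62.6 in WT libraries. Arid3b was weak, at 6.11 in KO library 1 and 23.7 and 19.7 in WT libraries. Arid4a had 1 peak, at 12.6 in KO library 1, and Arid3c had none.

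The entries matched by name only were Smarca5-ps, at 79.1 and 77.4 in KO and 81.5 and 79.4 in WT libraries, Chd3os, at 85 and 80.4 in KO and 73.4 and 78.5 in WT libraries, and Brd3os, with 1 peak at 6.25 in WT library 1. Smarca5-ps is a pseudogene, a near-identical copy of Smarca5, so reads of the 2 could be assigned to either. With these entries and Smarcd3 left out, 19 of 33 genes had a peak in all 4 libraries.

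Peaks of the remodeller genes spanned several exons more often than peaks at large. The share over more than 1 exon block was 38.1% and 36.5% in KO libraries and 26.8% and 28.6% in WT libraries, against 10.3% to 11.0% of the whole lists. The means were 37.3% ± 1.10 in KO and 27.7% ± 1.26 in WT libraries (SD, n = 2 each), a difference of 9.64 percentage points. The exact permutation p was 0.33, the smallest possible, with both KO values above both WT values. Over whole lists, the same share averaged 10.7% ± 0.484 in KO and 10.9% ± 0.249 in WT libraries. Peaks of 1000 bp or more made up 15.9% and 17.3% of the remodeller peaks in KO and 19.6% and 14.3% in WT libraries, against 10% to 10.8% of the lists.

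**Figure D3:**
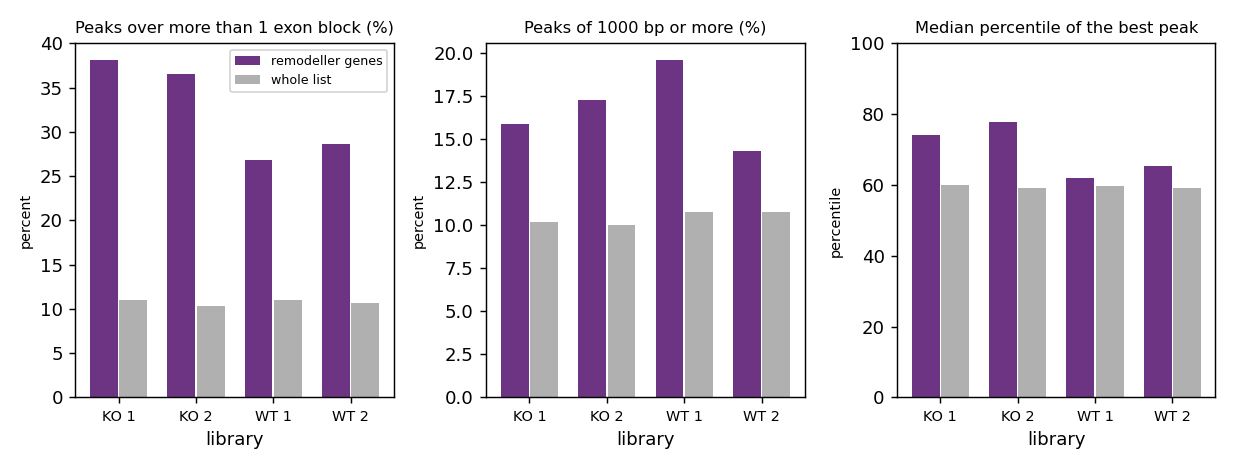
Share of peaks over more than 1 exon block, share of peaks of 1000 bp or more, and median percentile of the best peak per gene, for the remodeller genes and the whole list of each KO and WT library. The multi-exon share of the remodeller genes stands above that of the list in all 4 libraries, and is 38.1% and 36.5% in KO against 26.8% and 28.6% in WT libraries.

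The genes also held more regions each. Their median was 2.00 regions against 1 over all genes, and 6 of 37 (16.2%) had 4 or more, against 5.18% of all genes. The median percentile of the best peak was 74.1 and 77.9 in KO libraries and 61.9 and 65.3 in WT libraries, where whole lists gave 59.1 to 59.9. Ranked by fold enrichment in place of the p-value, the medians were 58.1 and 71.2 in KO and 44.8 and 45.2 in WT libraries, where whole lists gave 58.9 to 59.9. Their place relative to the list so turned from above to below in KO library 1 and both WT libraries.

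Coding sequence held the strong regions. Of the 16 remodeller regions that reached the percentile 90 in any library, 14 (87.5%) lay in coding sequence, against 59.8% of all such regions. Among regions shared by all 4 libraries, 36% of the remodeller regions lay in coding sequence and 56.0% in the 3′UTR, against 38.7% and 45.7% of all shared regions. Of regions not shared by all 4, 61.9% of the remodeller regions lay in coding sequence, against 39.9% of all. By peaks, the coding share averaged 42.8% ± 2.09 in KO and 39.3% ± 0 in WT libraries, and the 3′UTR share 31.1% ± 3.17 in KO and 35.7% ± 2.53 in WT libraries (SD, n = 2 each, exact permutation p = 0.33 for either).

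Regions of the remodeller genes were shared by all 4 libraries less often than regions at large. Of the 88 remodeller regions, 25 (28.4%) had a peak in all 4 libraries, against 42.5% of all 15487 regions, and 35 (39.8%) had a peak in a single library, against 28.3% of all. Peaks in both KO and neither WT library made up 3 (3.41%, against 2.51% of all), on Chd4, Chd8 and Ino80c. Peaks in both WT and neither KO library made up 1 (1.14%, against 2.02% of all), on Ino80d. Among the single-library regions, 5 of 35 (14.3%, against 3.47% of all such regions) reached the percentile 90. They lay on Chd7 and Ino80d in KO library 1, Chd6 in KO library 2, Arid4b in WT library 1 and Arid2 in WT library 2, so every library held at least 1.

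Within the regions shared by all 4 libraries, peaks were ranked again among those 6589 regions. Both KO ranks lay above both WT ranks for 11 of the 25 remodeller regions (44.0%, against 19.5% of all shared regions), and both WT ranks above both KO ranks for 3 (12%, against 21.5%). The 11 lay on Arid3a, Arid4b, Arid5a, Baz2a, Brd2, Chd3os, Chd5, Ino80 and Ino80d, which holds 3 of them. The 3 were Arid2, Brd3 and Chd1. Among the 11, the gap between group means was widest on Ino80, at 29.7 and 46.8 in KO libraries against 12.2 and 13.8 in WT libraries. On Arid4b it was 92.7 and 91.9 in KO libraries against 85.8 and 80.4 in WT libraries. On the Ino80d coding region already given it was 89.8 and 89.4 in KO libraries against 89.2 and 88.7 in WT libraries, less than a percentile between the group means. Regions of the same gene share a transcript and are not independent. Ranked by fold, both KO ranks lay above both WT ranks for 8 of the 25 (32.0%, against 17.6% of all shared regions), and both WT ranks above both KO ranks for 4 (16%, against 18.4%). Among the 11, the unranked fold of the peak with the best p-value was lower in both KO lists on Brd2 and the Ino80d region just given. That Ino80d region had 397 and 249 in KO against 580 and 550 in WT lists. KO and WT folds overlapped on Arid3a, Arid5a, Chd3os and the 5′ Ino80d region. Both KO folds were higher on Arid4b, Baz2a, Chd5, Ino80 and the other Ino80d coding region. Unranked folds may differ in scale between lists, whose median fold over all peaks was 19.2 and 24.9 in KO and 22.4 and 26.6 in WT. These orders of unranked folds are descriptions and give no direction between the genotypes.

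**Figure D4:**
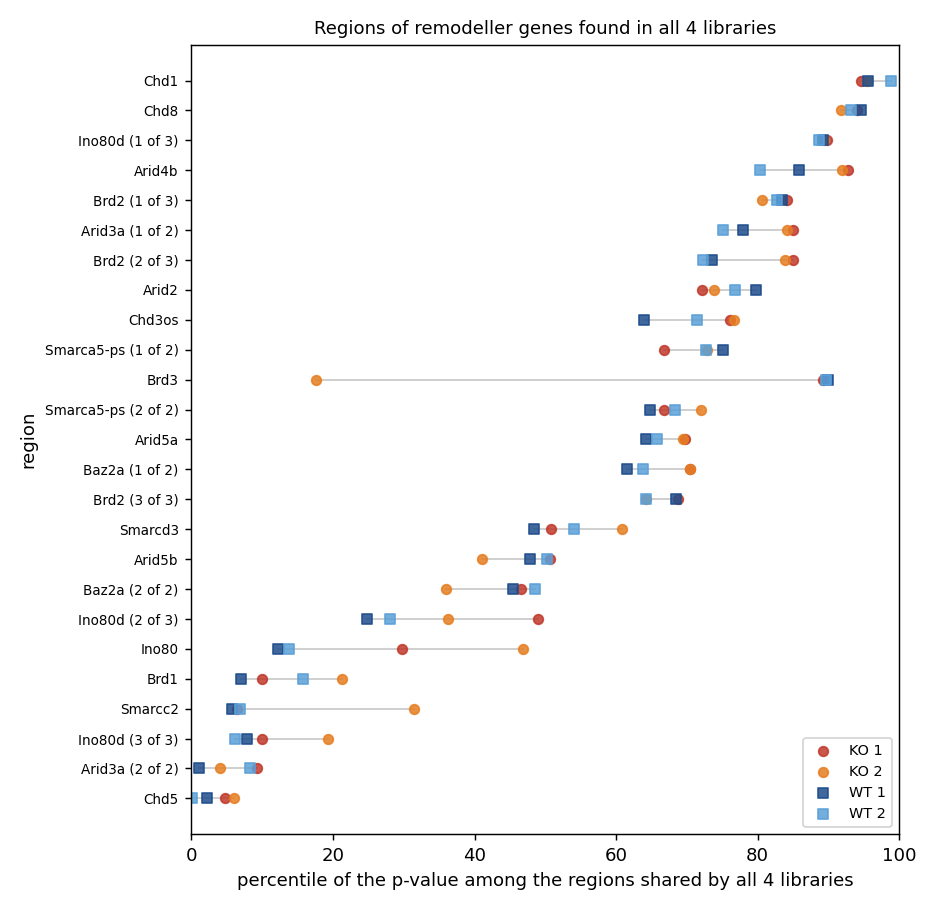
Percentile of the p-value among the 6589 regions shared by all 4 libraries, for the 25 remodeller regions (rows), with circles for the KO and squares for the WT libraries. Ino80 and the second Brd2 region show both circles to the right of both squares, and the single low Brd3 circle is KO library 2. The unranked folds of the second Brd2 region, not shown, were lower in both KO lists than in both WT lists, but their scale may differ between lists.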

How the data were processed

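The data are 4 m6A peak lists, 1 per library, from 2 Mettl5-/- and 2 wild-type libraries grouped by titles and genotype labels. One WT library is titled Ctr and the other WT, and both carry the wild-type genotype, so they were taken as 2 samples of 1 group. The authors deposited peaks called per sample. Per the submitters' processing notes, the tools were HISAT2 and HOMER and the build mm10. The sources used here do not give their roles, the peak caller or the input. Per the file headers, each deposited peak has a p-value, a score that is the logarithm of the p-value or of its adjusted form, a fold enrichment (a ratio), exon blocks, a gene and a transcript part. A score without a finite value was tied at the top of its list. Per-peak folds and scores were used to rank or describe peaks within a list. Unranked folds of different lists set side by side are descriptions only.

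Regions were formed by joining blocks that overlap by at least 1 bp on either strand. Peaks off the reference chromosomes (6 and 3 in KO, 3 and 5 in WT lists) were left out. Strength percentiles came from ranks of the p-value score. Genotypes were compared by counts, means ± SD and an exact two-sided permutation test, with Python 3.11.15, pandas 2.3.3 and numpy 2.4.6. The joining and counting were tested on simulated lists, where 200 of 200 regions planted in KO only and 200 of 200 in WT only were recovered. Those lists were slightly shifted copies of the list of WT library 1 with no random loss of peaks. The recovery thus checks the code only, and not how reliably a region of 1 genotype is called in the real lists. Alternatives were a threshold on the adjusted p-value of 0.05, equal lengths for the lists, their stronger 50%, joining within 100 bp, a reciprocal overlap of 50%, ranks by fold, shares by base pairs, and leaving out each library.

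The members and the lists of partners, markers and roles were chosen with earlier results of these data known. Named genes were all members not in all 4 libraries, those with a region in both libraries of 1 genotype and neither of the other, the strongest, those with the most regions and the weakest in all 4; the other members are given by role. The counts take in 1 member that is not reported here by itself. Coordinates are 1-based on mm10.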

Additional observations from a re-analysis of the deposited data

How the results depend on the processing

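Of the alternatives other than leaving out a library, 59 values stayed within their spread or within 1.5 times the main count, and 20 moved. Regions in both WT and neither KO library numbered 1 in the main setting, 0 when joined within 100 bp, 0 in the stronger 50% of each list and 2 in lists of equal length. Genes in both WT and neither KO library numbered 1 (Arid3b) in lists of equal length. Regions in all 4 libraries numbered 25 of 88 in the main setting and 16 of 45 in the stronger 50%, so the count fell but the share did not. In that setting the regions in both KO and neither WT library lay on Brd1, Chd8 and Ino80, so only the Chd8 region was kept. Under a reciprocal overlap of 50% they lay on Brd1, Chd8 and Ino80c. For these alternatives the matching shares of all genes and regions are not given, so none of the counts can be called high or low. The KO minus WT difference in coding share was 3.46 percentage points, 1.73 in the stronger 50% and 1.33 at equal length. The 3′UTR difference was -4.62, -0.890 in the stronger 50%, and 0.382 by base pairs, which turned its sign. The difference in multi-exon share was 5.33 in the stronger 50% and 12 at equal length. Median strength of the best peak was 74.1 in KO library 1, 77.9 in KO library 2, 61.9 in WT library 1 and 65.3 in WT library 2. It was 58.1, 71.2, 44.8 and 45.2 by fold, and 61.4, 55.5, 38.1 and 40.4 when the median peak stood for the gene, where whole lists gave 50 to 50.2. By that measure the remodeller genes lay above the list in both KO libraries and below it in both WT libraries. The cause of these shifts was not tested.

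Leaving out each library in turn makes presence easier to meet in the arm left with 1 library. It gave 2 to 4 genes and 5 to 16 regions in the KO and neither WT libraries, and 0 to 4 genes and 2 to 10 regions in the opposite direction. The KO-only genes numbered 4 without KO replicate 1 and 4 without KO replicate 2. The KO-only regions numbered 10 without KO replicate 1, 16 without KO replicate 2, 7 without WT replicate 1 and 5 without WT replicate 2. The WT-only regions numbered 8, 2, 10 and 7 in the same order, and the WT-only genes 4 without KO replicate 1 and 2 without WT replicate 2. Genes in all remaining libraries numbered 22 to 26 and regions 27 to 33. The matching shares of all genes and regions are not given for these counts of presence, so none can be called high or low. The difference in coding share was 1.98 to 4.95 and that in 3′UTR share -6.87 to -2.38. Both KO ranks lay above both WT ranks for 7 of 16 shared regions in the stronger 50% (43.8%, against 20.1% of all), and the other way for 2 (12.5%, against 22.5%). Without 1 library, where fewer ranks have to be in order, the shares were 48.1% to 58.6% against 32.7% to 36.1% of all, and the other way 14.8% to 35.7% against 35.3% to 36.5%. No paired analysis was possible because the WT labels carry no replicate numbers that match those of the KO labels. The lists hold no read counts, so presence was compared by counts only, and weak peaks near the end of a list limit every count of absence.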

Other observations

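Partners of the remodellers whose names fall outside the symbol rule were listed as well, 57 genes in all. Of these, 35 had a peak, 19 in all 4 libraries (54.3%, against 57.1% of all genes with a peak), and 0 had a peak in both libraries of 1 genotype and neither of the other, where 2.27% of all genes had one in KO only and 1.56% in WT only. Among the 19, both KO percentiles of the best peak lay above both WT percentiles for 6 (31.6%, against 16.5% of all genes in all 4 libraries), namely Atrx, Bicra, Bptf, Gatad2b, Kat5 and Rad54l. The reverse held for 0 (0%, against 10.3%). The genes named next were chosen after their values were seen. Srcap, the ATPase that deposits H2A.Z, lay at 95.2 and 95.0 in KO and 95.1 and 99.1 in WT libraries. Rad54l, a SNF2-family motor of homologous recombination, lay at 97.2 and 96.6 in KO and 96.3 and 95.9 in WT libraries. Atrx, which deposits H3.3 in heterochromatin, lay at 92.3 and 90.1 in KO and 82.0 and 69.6 in WT libraries. Bptf, the large subunit of the NURF complex, lay at 93.6 and 99.1 in KO and 70.2 and 67.9 in WT libraries. Ep400, the ATPase of the Tip60 complex, lay at 70.0 and 2.83 in KO and 23.7 and 12.6 in WT libraries. Cecr2, a partner of ISWI, had peaks in KO library 2 at 91.5 and WT library 2 at 99.1 only.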
